A study of Arabidopsis thaliana with 8 samples.

Results

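bZIP, WRKY, NAC and MYB proteins are large families of plant transcription factors, and the genes described here carry the family name followed by a number as their symbol. The platform annotation assigned 21 genes of this kind to probe sets of their own, out of 12916 genes named in this way and 22246 probe sets in all: 14 bZIP genes, 6 WRKY genes, 1 NAC gene (NAC014) and 0 MYB genes. Each of the 21 had a single probe set, so no choice between probe sets was needed. The gene table lists 30 bZIP, 67 WRKY, 79 NAC and 115 MYB genes under such symbols. The members therefore cover part of the bZIP and WRKY families, the NAC family is represented by 1 gene, and MYB factors are not analysed here.

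Germinating Arabidopsis thaliana seedlings of 3 genotypes were compared. The wild type is labelled as Columbia; the background of the mutants is not given in the labels. The 4 groups of 2 arrays were the ABA hypersensitive mutant ahg1-1 on 0.5 uM abscisic acid (ABA), the ABA hypersensitive mutant ahg3-1 on 0.5 uM ABA, the wild type on 0.5 uM ABA, and the wild type without ABA. All seedlings were collected after 2 days on MS medium with sucrose that followed stratification in the cold. The ahg1 and ahg3 mutations lie in related but separate PP2C phosphatase genes, and these genes are not analysed here, so no check of the mutants by their own RNA was made. Each mutant is represented by 1 allele. Groups and replicate numbers follow the sample titles, which some of the sample descriptions contradict.

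ABA is the hormone that holds seeds back from germinating. In its core pathway PP2C phosphatases keep SnRK2 kinases inactive, ABA-bound receptors block the phosphatases, and the freed kinases phosphorylate bZIP factors of group A, which bind ABA response elements. None of the members belongs to group A. EEL and FD, genes of that group measured under other symbols, are described further on. The other bZIP groups serve different signals, among them stress in the endoplasmic reticulum (ER), sugar and energy status, seed maturation and zinc supply. WRKY factors bind the W-box and are best known from immunity, leaf senescence and phosphate supply, and NAC factors include several that are held in membranes until released.

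Values are log2 expression, on which 1 unit is a doubling, and differences are given as log2 of the first group minus the second. A probe set was called when its adjusted p in limma was below 0.05 over all 22246 probe sets. Arrays with replicate number 2 differed from those with number 1 in all groups: the interquartile range of all probe sets was 2.55 to 2.79 on the number 1 arrays and 2.91 to 3.03 on the number 2 arrays, and when the shift from number 1 to number 2 was correlated over probe sets between any pair of groups, r lay at 0.50 or more and at most 0.84. Printed beside the fitted differences are therefore those within each number, which are 1 array against 1 other with no test, and so is the fit with the number as a block where it changes a call. The seedling and seed markers differed strongly with ABA. Marker levels were summed on the linear scale and are given as log2 of the sum, so the brightest genes weigh most. For 6 photosynthesis genes (of 8 listed) this was 12.17 and 10.77 in wild type on ABA (numbers 1 and 2) and 14.43 and 14.09 without it. For 5 seed maturation genes (of 5) it was 12.16 and 13.75 on ABA and 7.21 and 8.08 without it. In all 4 groups the number 1 array had more photosynthesis and less seed maturation RNA than its partner. Both gaps were widest in wild type on ABA. The single measured seed coat marker, BAN, lay at 5.77 to 6.23 on ABA and 5.33 to 6.29 without it, 2 of 4 root hair markers summed to 6.52 to 9.42 on ABA and 8.64 to 8.68 without it, and 0 of 4 endosperm markers were measured. With ABA the stage of germination and the hormone itself cannot be told apart, nor can fewer cells of a type and less RNA per cell.

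The first comparison asked which factor genes differed between wild-type seedlings with and without ABA. Both arrays on ABA lay above both without it for the ER stress factors BZIP60, BZIP17 and BZIP28 and the immunity factor WRKY22. They lay below for WRKY47, BZIP34, BZIP61, WRKY53 and bZIP58. Most of the others differed by less than their error. By limma 0 of 21 members were called, against 1.37% of all probe sets (0.692% higher and 0.679% lower). At an unadjusted p below 0.05 there were 3 members, BZIP60, WRKY22 and WRKY47, where 12.8% of all probe sets lay below it. With the replicate number as a block these 3 were called, 2 higher and 1 lower, or 14.3% of the members beside 12.6% of all probe sets (6.1% higher and 6.48% lower), and 6 members had an unadjusted p below 0.05 beside 26.6%, so the members were called about as often as probe sets at large. Values are shown array by array in the plot of 12 members.

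**Figure D1:**
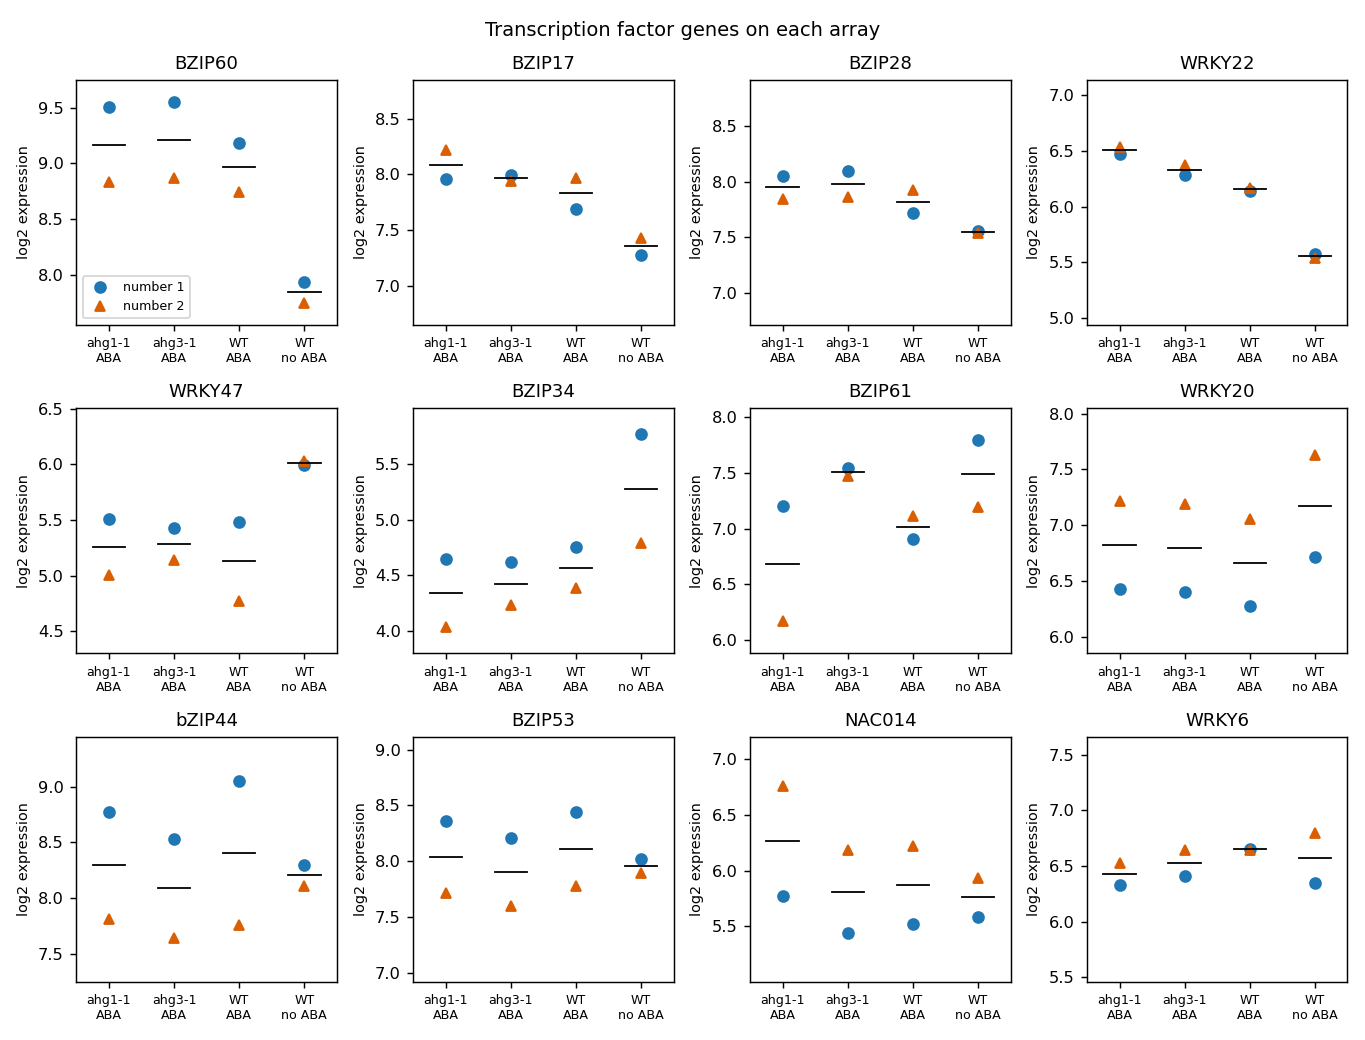
Log2 expression of 12 transcription factor genes on the 8 arrays, in panels of equal height in log2 units. Circles are arrays of number 1, triangles those of number 2 and bars the group means; WRKY22 runs from 6.51 in ahg1-1 over 6.33 in ahg3-1 and 6.15 in wild type on ABA to 5.56 in wild type without ABA with no overlap, while bZIP44, WRKY20 and NAC014 are split by replicate number.

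The 3 measured bZIP factors of the ER stress response have forms anchored in the ER membrane. BZIP17 and BZIP28 are set free from it when unfolded proteins build up. BZIP60, whose RNA is spliced by the sensor kinase IRE1, stood at 9.18 and 8.74 in wild type on ABA and at 7.94 and 7.75 without it. Both arrays on ABA lay above both arrays without it. The difference was 1.12 ± 0.34 (SE, n = 2 each), a 2.17-fold higher level on ABA, with an adjusted p = 0.209 in limma and an adjusted p = 0.0076 with the block. It came to 1.25 within number 1 and 0.99 within number 2, and only 2.24% of all probe sets had a higher change. No other member had a higher fitted difference.

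BZIP17, which is cleaved in the Golgi in salt and ER stress, had 7.69 and 7.96 in wild type on ABA against 7.28 and 7.43 without it. The groups did not overlap, and the difference of 0.47 ± 0.20 was close to equal within both numbers, at 0.41 and 0.53 (limma, adjusted p = 0.406, or an adjusted p = 0.0948 with the block). BZIP28, which is released in the same way, had 7.71 and 7.93 on ABA against 7.56 and 7.53 without it, a difference of 0.27 ± 0.20 that did not pass either (limma, adjusted p = 0.749). After cyclic loess normalization it was 0.13. On all 6 arrays with ABA, mutants included, BZIP60, BZIP17 and BZIP28 were above both arrays without ABA.

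The bZIP factors of group S1 pair with those of group C and bear on energy supply and seed genes. BZIP53, an activator of seed maturation genes, had 8.44 and 7.77 in wild type on ABA against 8.02 and 7.89 without it, and bZIP44, which has been tied to a mannanase gene in germination, had 9.05 and 7.76 on ABA against 8.30 and 8.11 without it. Within number 1 both were higher with ABA, by 0.43 and 0.76, and within number 2 both were lower, at -0.12 and -0.35. Their fitted differences of 0.15 ± 0.35 and 0.20 ± 0.53 are therefore far within their error (limma, adjusted p = 0.971 and 0.977). They rest on wild type on ABA replicate 1: without that array they were -0.18 for BZIP53 and -0.44 for bZIP44. In cyclic loess BZIP53 also turned to the other side, at -0.0067. The group I factor bZIP52 showed the same split, with 0.34 within number 1 and -0.40 within number 2.

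Lower values with ABA were found for BZIP34 and BZIP61, a pair of close relatives of which BZIP34 is known from pollen. BZIP34 had 4.75 and 4.38 in wild type on ABA against 5.77 and 4.79 without it, so the groups were separated by only the narrow gap between 4.75 and 4.79. The difference was -0.71 ± 0.39 (limma, adjusted p = 0.581, or an adjusted p = 0.0505 with the block), at -1.01 and -0.41 within the numbers. It shrank to -0.22 without the first array of wild type without ABA, which leaves number 2 alone in that group. BZIP61 had 6.91 and 7.11 on ABA against 7.80 and 7.19 without it, a difference of -0.48 ± 0.37 that came to -0.88 within number 1 and -0.08 within number 2 (limma, adjusted p = 0.781).

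bZIP19, a sensor of zinc shortage, stood at 7.67 and 7.47 in wild type on ABA against 7.76 and 7.62 without it. The difference was -0.12 ± 0.20, with a 95% interval of -0.59 to 0.35. BZIP24, its relative with a role in salt stress, lay near the bottom of the scale, at 3.84 and 3.73 on ABA against 3.92 and 3.71 without it. The group S members bZIP42, bZIP43, bZIP48 and bZIP58 lay there too. These 5 bZIP genes, WRKY42 and WRKY53 were below the lower quartile of every array, so 7 of the 21 members were measured where RMA values have little room to fall. Among them bZIP58 had no overlap between the groups, with 3.83 and 3.63 on ABA against 3.92 and 4.04 without it (-0.25 ± 0.20; limma, adjusted p = 0.794).

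Of the WRKY genes WRKY22 had the tightest values. WRKY22, which acts below the MAP kinase cascade of flagellin immunity, had 6.14 and 6.17 in wild type on ABA against 5.58 and 5.54 without it. The spread within each pair was a small part of the gap between the groups. The difference was 0.59 ± 0.17, a 1.51-fold higher level, at 0.56 within number 1 and 0.63 within number 2 (limma, adjusted p = 0.189, or an adjusted p = 0.0347 with the block). Across the fits that leave out 1 array it stayed between 0.58 and 0.61.

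WRKY47, WRKY6 and WRKY42 belong to group IIb. WRKY47 had 5.48 and 4.77 in wild type on ABA against 5.997 and 6.03 without it, the lowest change among the members at -0.89 ± 0.30, or a 1.85-fold higher level without ABA (limma, adjusted p = 0.268, or an adjusted p = 0.0291 with the block). The size differed between the numbers, at -0.51 and -1.26, but both arrays on ABA were below both arrays without it. WRKY6, a factor of senescence and phosphate supply that has also been linked to ABA responses in seeds, had 6.65 on both arrays on ABA against 6.35 and 6.80 without it. The values on ABA thus lay between those without it, and the difference of 0.08 ± 0.22 had opposite signs within the numbers. WRKY42, which acts in phosphate supply, had 3.78 and 3.82 on ABA against 4.15 and 3.68 without it.

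WRKY53, an early factor of leaf senescence, had 3.61 and 3.46 in wild type on ABA against 3.82 and 3.84 without it. The groups did not overlap and the difference was -0.30 ± 0.20 (limma, adjusted p = 0.705). WRKY20, of the group with a pair of WRKY domains, had 6.27 and 7.05 on ABA against 6.71 and 7.63 without it. Its groups overlapped although both numbers showed a lower value with ABA, by -0.44 and -0.58, because the numbers themselves lay far apart (limma, adjusted p = 0.851, or an adjusted p = 0.0603 with the block). NAC014, listed among the NAC factors with a membrane anchor, had 5.52 and 6.23 on ABA against 5.59 and 5.94 without it, a difference of 0.11 ± 0.44 with opposite signs within the numbers (limma, adjusted p = 0.985).

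**Figure D2:**
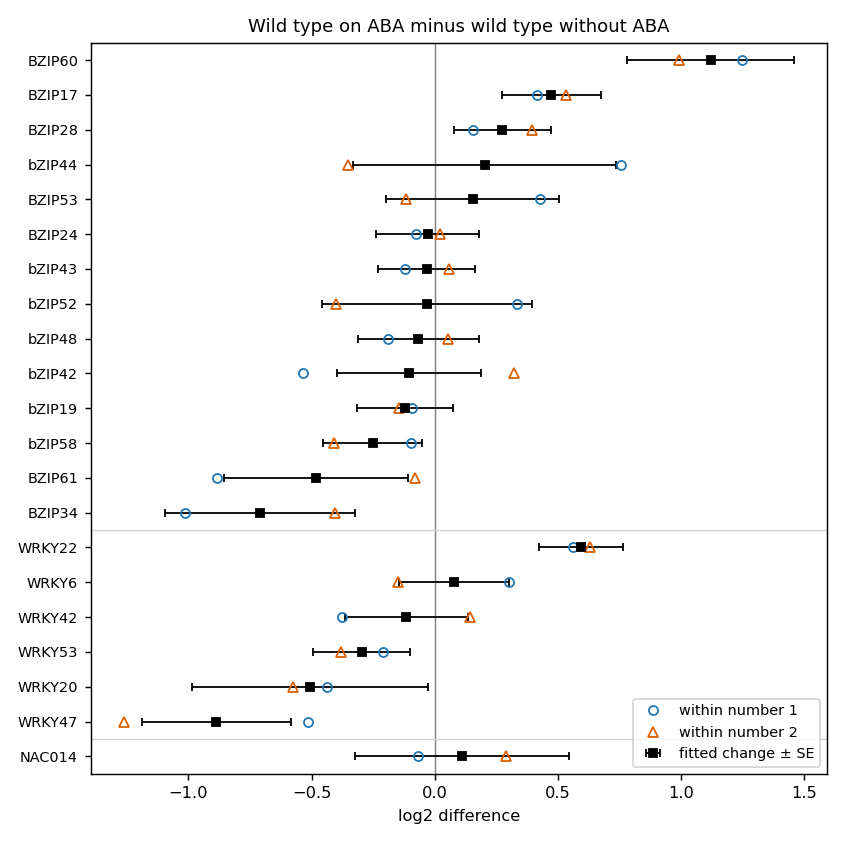
Differences between wild type on ABA and wild type without ABA for the 21 members, in log2 units, by family and ordered by size. Squares with bars are fitted changes ± SE, circles and triangles the differences within numbers 1 and 2; BZIP60 (1.12), WRKY22 (0.59), BZIP17 (0.47) and WRKY47 (-0.89) lie on one side of 0 with all their symbols, whereas bZIP44 and bZIP42 lie on both sides.

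Taking the families side by side, the bZIP median was -0.03 and the WRKY median -0.21 in this comparison, beside 0.05 over all probe sets. The bZIP median was 0.18 when dim probe sets were left out. Within the numbers the medians were -0.09 and -0.03 for bZIP and -0.29 and -0.26 for WRKY. The difference had 1 sign within both numbers for 11 of the 21 members, beside 64.8% of all probe sets. In size the typical member change was like that of the array as a whole, with a median of 0.20 regardless of sign beside 0.23 over all probe sets. Arrays of the groups did not overlap for 4 members that were higher with ABA, or 19% (background 18.4%), and for 5 that were lower, or 23.8% (background 14.3%). On all 6 arrays with ABA 4 members (BZIP17, BZIP28, BZIP60 and WRKY22) lay above both arrays without it, 19% beside 13.8% of all probe sets, and 4 members (BZIP34, bZIP58, WRKY47 and WRKY53) lay below, 19% beside 11.4%. With 21 members, each of these counts is only a few genes away from the background.

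**Figure D3:**
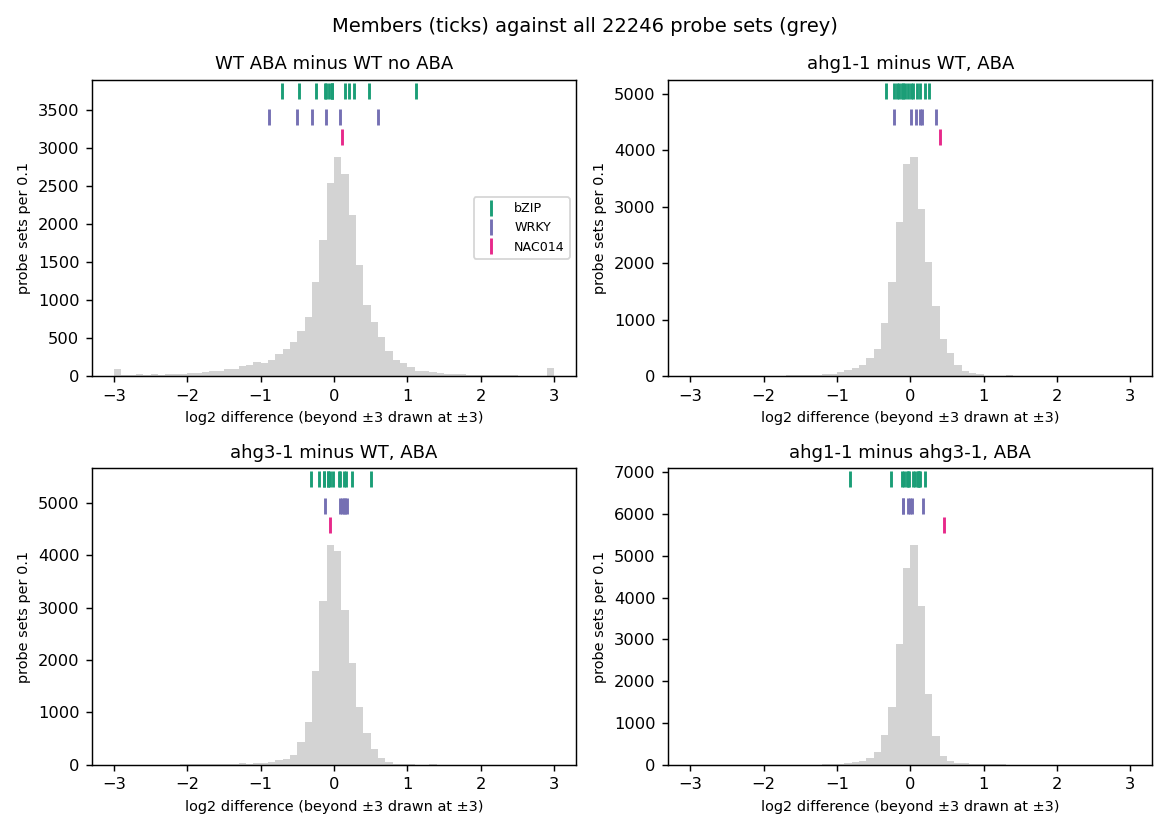
Number of probe sets per 0.1 log2 unit (grey bars, all probe sets) for each of the 4 comparisons, with the members as ticks above them, bZIP in the top row, WRKY in the middle and NAC014 below. The members span -0.89 to 1.12 with ABA and lie mostly within the body of the distribution; in ahg1-1 minus ahg3-1 BZIP61 (-0.83) and NAC014 (0.46) stand at its edges.

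The second comparison set ahg1-1 seedlings against wild type on the same ABA medium. WRKY22 and NAC014 had the highest differences and BZIP61 and WRKY6 were among the lowest, all within what the test could not separate from the spread. By limma 0 of 21 members were called, as were 0% of all probe sets. At an unadjusted p below 0.05 there were 0 members, beside 1.47% of all probe sets. With the block 0 members were called as well, beside 0.0135% of all probe sets, and 1 member, WRKY22, had an unadjusted p below 0.05 beside 8.62% of all probe sets. The arrays did not overlap for 1 member that was higher, 4.76% beside 11% of all probe sets, and for 1 that was lower, 4.76% beside 8.66%. The sign was the same within both numbers for 12 of the 21, beside 56.5%. Photosynthesis markers were lower in ahg1-1, at 10.23 and 9.81 against 12.17 and 10.77 in wild type, and seed maturation markers were at 13.43 and 14.26 against 12.16 and 13.75; their part in the members' values was not tested.

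WRKY22 was the member above wild type on both arrays, with 6.48 and 6.54 in ahg1-1 against 6.14 and 6.17 in wild type. The difference was 0.35 ± 0.17, nearly equal within the numbers at 0.34 and 0.36, with a 95% interval of -0.06 to 0.76 (limma, adjusted p = 1). WRKY6 was the member below wild type on both arrays, with 6.33 and 6.53 in ahg1-1 against 6.65 in both wild-type arrays, a difference of -0.22 ± 0.22. NAC014 had 5.78 and 6.76 in ahg1-1 against 5.52 and 6.23 in wild type. It was higher in ahg1-1 within each number, by 0.26 and 0.54, but the numbers were farther apart than the genotypes (0.40 ± 0.44). The difference turned to -0.096 without the second ahg1-1 array, a fit that sets number 1 of ahg1-1 against both numbers of wild type.

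Among the ER stress factors BZIP17 had 7.96 and 8.22 in ahg1-1 against 7.69 and 7.96 in wild type, and its difference of 0.26 ± 0.20 was the same within both numbers, at 0.26 each. BZIP60 differed by 0.20 ± 0.34 and BZIP28 by 0.13 ± 0.20. BZIP61 had 7.20 and 6.17 in ahg1-1 against 6.91 and 7.11 in wild type, so that it stood 0.29 higher within number 1 and 0.94 lower within number 2 (fitted difference -0.33 ± 0.37). The remaining members lay between -0.22 (BZIP34) and 0.16 (WRKY20). The family medians were -0.05 for bZIP and 0.10 for WRKY, beside 0.01 over all probe sets.

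Seedlings of ahg3-1 on ABA were compared in the same way with wild type. BZIP61 and WRKY22 were above wild type on both ahg3-1 arrays, and WRKY6 was below by a margin of almost nothing within number 2. By limma 0 of 21 members were called and 0% of all probe sets, and 0 members had an unadjusted p below 0.05, beside 0.0809% of all probe sets. With the block the counts were 0 called and 0 below the unadjusted threshold, beside 4.41% of all probe sets. The arrays did not overlap for 2 members that were higher, 9.52% beside 7.39% of all probe sets, and for 1 that was lower, 4.76% beside 8.21%. The sign was the same within both numbers for 12 of the 21, beside 59.8%. Photosynthesis markers summed to 10.75 and 10.60 in ahg3-1 against 12.17 and 10.77 in wild type, and seed maturation markers to 13.41 and 13.92 against 12.16 and 13.75.

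BZIP61 had 7.55 and 7.47 in ahg3-1 against 6.91 and 7.11 in wild type. The difference was 0.50 ± 0.37, at 0.64 and 0.36 within the numbers, and 2.47% of all probe sets had a higher change (limma, adjusted p = 1). WRKY22 had 6.28 and 6.38 in ahg3-1 against 6.14 and 6.17 in wild type, a difference of 0.18 ± 0.17. WRKY6 had 6.41 and 6.64 in ahg3-1 against 6.65 in both wild-type arrays, a difference of -0.12 ± 0.22 with -0.0050 within number 2. BZIP60 differed by 0.25 ± 0.34, BZIP28 by 0.16 ± 0.20 and BZIP17 by 0.14 ± 0.20. BZIP60 was above wild type within both numbers, by 0.37 and 0.13, whereas BZIP28 and BZIP17 had opposite signs within the numbers. The lowest value belonged to bZIP44, at -0.32 ± 0.53. The family medians were -0.03 for bZIP and 0.12 for WRKY, beside 0.0027 over all probe sets; the bZIP median changed sign to 0.03 after cyclic loess, 0.02 after quantile normalization over all arrays, 0.11 with dim probe sets left out, 0.04 with synonyms and up to 0.095 without 1 array. Both mutant comparisons use the same wild-type arrays, so their values are given side by side and not as support for each other.

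**Figure D4:**
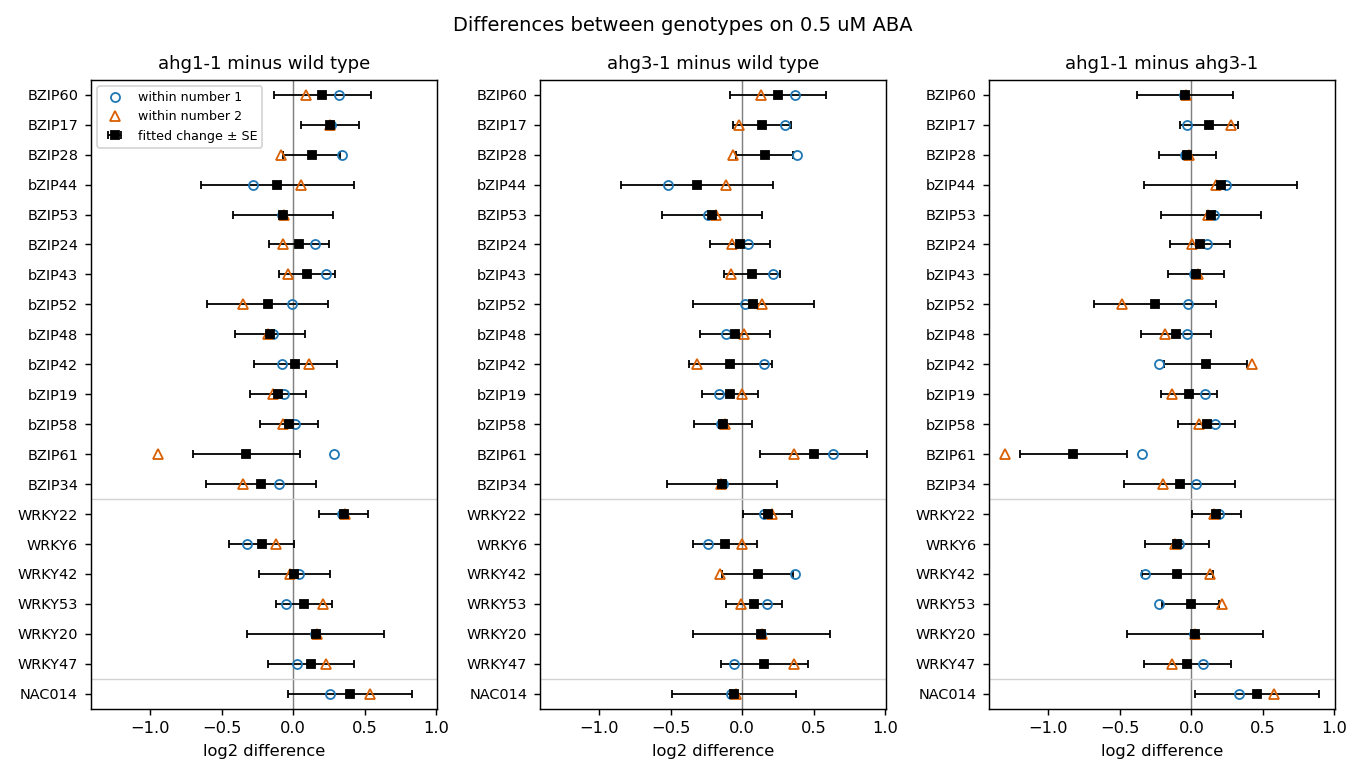
Differences on ABA between ahg1-1 and wild type, ahg3-1 and wild type, and ahg1-1 and ahg3-1 for the 21 members, in log2 units and in the same order of genes. Squares with bars are fitted changes ± SE, circles and triangles the differences within numbers 1 and 2; WRKY22 lies right of 0 in all 3 panels (0.35, 0.18 and 0.18), and BZIP61 lies at -0.33, 0.50 and -0.83.

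Finally, ahg1-1 was compared with ahg3-1, which is also the test of whether their effects differ. BZIP61 and NAC014 had the largest differences. By limma 0 of 21 members were called and 0% of all probe sets, and 0 members had an unadjusted p below 0.05, beside 0.414% of all probe sets. With the block 0 members were called beside 0.0045% of all probe sets, and 2 members, BZIP61 and NAC014, had an unadjusted p below 0.05 beside 2.61%. The arrays did not overlap for 1 member that was higher in ahg1-1, 4.76% beside 11.3% of all probe sets, and for 1 that was lower, 4.76% beside 7.17%. The sign was the same within both numbers for 14 of the 21, beside 54.1%. Photosynthesis markers summed to 10.23 and 9.81 in ahg1-1 against 10.75 and 10.60 in ahg3-1 without overlap, 6 of 6 genes being lower, and seed maturation markers to 13.43 and 14.26 against 13.41 and 13.92; their part in the members' values was not tested.

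BZIP61 had 7.20 and 6.17 in ahg1-1 against 7.55 and 7.47 in ahg3-1, with both ahg1-1 arrays below both ahg3-1 arrays. The difference was -0.83 ± 0.37, at -0.35 and -1.31 within the numbers, with a 95% interval of -1.72 to 0.06 (limma, adjusted p = 1). Only 0.319% of all probe sets had a lower change. Its size rests on the second ahg1-1 array, which holds the low value of 6.17: without it the difference was -0.31. NAC014 had 5.78 and 6.76 in ahg1-1 against 5.44 and 6.18 in ahg3-1, a difference of 0.46 ± 0.44 that was positive within both numbers (0.33 and 0.58), and 1.27% of all probe sets had a higher change. It turned to -0.04 without the second ahg1-1 array, but NAC014 was higher on number 2 in all 4 groups, by 0.35 to 0.99. That fit sets number 1 of ahg1-1 against both numbers of ahg3-1. WRKY22 had 6.48 and 6.54 in ahg1-1 against 6.28 and 6.38 in ahg3-1 (0.18 ± 0.17).

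WRKY22 was thus the single member whose 4 groups followed each other without overlap, from ahg1-1 over ahg3-1 and wild type on ABA to wild type without ABA. That order was noticed in the values. It held for 0.926% of all probe sets, and the same order from low to high for 0.427%. None of the differences between the 3 groups on ABA was called. The other members that were apart with ABA had no such order without overlap. In BZIP17 the group means fell in that order, at 8.09, 7.97, 7.83 and 7.36. BZIP34 means rose in it, at 4.34, 4.42, 4.57 and 5.28. In both genes the arrays of the groups on ABA overlapped. BZIP60 averaged 9.17 ± 0.47 in ahg1-1, 9.21 ± 0.48 in ahg3-1, 8.96 ± 0.31 in wild type on ABA and 7.84 ± 0.13 in wild type without ABA (SD, n = 2). WRKY47 averaged 5.26 ± 0.36, 5.28 ± 0.20, 5.13 ± 0.50 and 6.02 ± 0.03 in the same order of groups.

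Members also differed in how far the replicate numbers were apart. WRKY20 was higher on number 2 than on number 1 in all 4 groups, by 0.78 to 0.91, and NAC014 by 0.35 to 0.99. bZIP44 was lower on number 2 in all groups, with shifts between -1.29 and -0.19, and BZIP34 with shifts between -0.98 and -0.37. BZIP53 and BZIP60 were lower as well, by up to -0.67 and -0.68. In all, 3 members were higher and 7 lower on number 2 in every group, 47.6% of the members beside 55.7% of all probe sets. WRKY22 was the opposite case, with shifts of -0.03 to 0.09. In every member except BZIP17, BZIP28, BZIP60, WRKY22 and WRKY47 the largest of these shifts exceeded in size each fitted difference between groups.

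Genes of these families under other symbols gave few further members. Synonyms led to 9 more genes: 8 bZIP genes and ZAP1, also known as WRKY1. EEL, the bZIP12 of group A that is expressed in maturing seeds, was the one with a large difference, 7.08 in wild type on ABA and 5.06 without it (2.02 ± 0.43; limma, adjusted p = 0.098, or an adjusted p = 0.000918 with the block), close to equal within the numbers at 2.004 and 2.03. EEL is also 1 of the 5 seed maturation markers. It differed by 0.52 ± 0.43 in ahg1-1 and 0.50 ± 0.43 in ahg3-1. The other 8 lay between -0.22 (bZIP18, AT2G40620) and 0.63 (bZIP69, AT1G06070) with ABA and were not called by either fit. Among them FD (bZIP14), also of group A, differed by 0.21 ± 0.27 with ABA, at -0.14 within number 1 and 0.56 within number 2. The bZIP gene HYH differed by -0.39 ± 0.91 with ABA and the small MYB gene TRY by -0.09 ± 0.20.

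Known target genes of the families, given from lists of the pathways, are mostly not among the named probe sets. Of 30 listed targets of group A bZIP factors 8 were measured, of which 6 had higher and 2 lower values with ABA. Called higher were 3 of them, beside 0.692% of all probe sets. The called genes were LEA18 (6.31 ± 0.93, limma, adjusted p = 0.033), the oil body protein OLEO3 (5.36 ± 0.30, limma, adjusted p = 0.00144) and the storage protein PAP85 (6.01 ± 0.85, limma, adjusted p = 0.0289). PAP85 was no longer called in 6 of the 8 fits that leave out 1 array, with an adjusted p of up to 0.147. LEA18, OLEO3 and PAP85 are seed maturation markers as well. With the block 5 were called higher, beside 6.1% of all probe sets, the other two being LTI30 (1.99 ± 0.69) and COR15A (1.11 ± 0.29). The last 3 were called by neither fit, M10 at 0.88 ± 0.32 and, with lower values on ABA, COR47 at -1.16 ± 0.58 and COR15B at -0.20 ± 0.24; beyond the rule for named genes, these 5 were named after their values were seen. None of the other measured targets was called: 6 of the flavonoid genes, with DFR, a reductase of anthocyanin synthesis, at -2.47 ± 0.96 and the anthocyanin glycosyltransferase UF3GT at -0.96 ± 0.82, 3 glucosinolate genes, with BCAT4, the first enzyme of methionine chain elongation, at -2.28 ± 0.82 (limma, adjusted p = 0.296, or an adjusted p = 0.025 with the block; -3.36 to -1.21 without 1 array) and UGT74B1 at 0.47 ± 0.24, the lignin gene HCT at -0.62 ± 0.59 and the defensin gene PDF1.2 at 0.64 ± 0.36. In DFR the difference was -0.27 within number 1 and -4.68 within number 2.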

How the data were processed

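Each of the 8 samples was measured on an array of its own, in 1 colour. The deposited values are log2 expression, 1 per probe set and array, made with RMA per the submitters' processing notes; no version, and no list of the arrays normalized together, is known here. The 22246 probe sets were used without a filter, with 0 columns left out. Titles gave the groups and replicate numbers, since the descriptions contradict them for 6 samples. Whether the arrays of a group are separate cultures is not stated, so p-values measure spread between arrays that may be technical, and precision is limited by the number of arrays. The main limma fit had no term for the replicate number, so its p-values do not account for it. The number entered as a block in an alternative fit only, because array spread differed with it in all groups. The shift between the numbers was also correlated over probe sets between pairs of groups (r from 0.50 to 0.84). No label says that the number marks a shared culture or day.

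A group-means model was fitted over all 8 arrays (4 residual degrees of freedom) in limma 3.58.1 (R 4.3.3), with empirical Bayes moderation. The 4 contrasts were tested two-sided with Benjamini-Hochberg adjustment over all probe sets, and only member rows are printed. The script was tested on simulated data. Alternatives were the replicate number as a block, only the groups compared, cyclic loess, a dim filter (at or above the array median on 2 or more arrays), another probe set per gene, wider symbols, a trended robust fit, and each array left out. Quantile normalization and gene synonyms were added after seeing the data.

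Named by rule are, per family, up to 3 members per direction with ABA and 1 in other contrasts, among those with no overlap and 1 sign within both numbers, and up to 2 per list with the smallest p; other members are named because all 21 are described. 12998 of the 13072 probe sets with 1 gene were found in the TAIR10.1 gene table. Lists of NAC, MYB and other factors with 0 measured genes are not reported. The locus listed as CHI was left out, since that symbol stands for a chitinase there. The members and lists were chosen with earlier results of these data known.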

Additional observations from a re-analysis of the deposited data

How the results depend on the processing

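The replicate number as a block called 3 members with ABA instead of 0 (BZIP60, WRKY22 and WRKY47, at adjusted p-values of 0.0076, 0.0347 and 0.0291) and 0 in the other contrasts; it also called EEL and BCAT4 (adjusted p = 0.000918 and 0.025). No other setting called a member: the counts were 0 in each of the 8 fits without 1 array. PAP85 lost its call with only the 2 groups compared (adjusted p = 0.168). Without 1 array the differences with ABA ran from -0.18 to 0.49 for BZIP53, from -0.44 to 0.85 for bZIP44, from -0.13 to 0.073 for BZIP24, from -0.24 to 0.46 for NAC014, from -0.14 to 0.57 for FD, from -0.28 to 0.11 for TRY, from -2.12 to 0.20 for UF3GT and from -1.34 to 0.10 for HCT, so each of these changed sign; BZIP53 was -0.0067 after cyclic loess. Each fit without 1 array leaves 1 group with a single replicate number. In comparisons of that group the shift between numbers therefore enters the difference. The cause of each change of sign was not tested.

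Counts of members without overlap moved most, since fewer arrays overlap less. Without 1 array they ran from 4 to 7 higher and 5 to 10 lower with ABA, 1 to 7 and 1 to 9 for ahg1-1, 2 to 9 and 1 to 9 for ahg3-1, and 1 to 8 and 1 to 8 for ahg1-1 against ahg3-1. With the dim filter, which 13 members pass, 2 were lower with ABA. Cyclic loess gave 2 higher and 2 lower for ahg1-1, 2 lower for ahg3-1 and 3 lower for ahg1-1 against ahg3-1; quantile normalization gave 2 in each of these. With synonyms 2 were lower in ahg1-1. The WRKY median of ahg1-1 against ahg3-1 ran from -0.077 to 0.12 without 1 array. The bZIP median changed sign in all 4 comparisons when 1 array was left out, at -0.19 to 0.089 with ABA (0.18 with the dim filter), -0.20 to 0.16 for ahg1-1, -0.12 to 0.095 for ahg3-1 and -0.17 to 0.17 for ahg1-1 against ahg3-1, and so did NAC014, at -0.096 to 0.89 for ahg1-1, -0.43 to 0.31 for ahg3-1 and -0.036 to 0.95 for ahg1-1 against ahg3-1. The WRKY median stayed at -0.23 to -0.11 with ABA, 0.017 to 0.10 for ahg1-1 and 0.0014 to 0.19 for ahg3-1. Another probe set per gene and wider symbols left the 21 members as they were. Members below the lower quartile of every array have little signal over background.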

Other observations

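Genes of protein folding and quality control in the ER are textbook targets of BZIP17, BZIP28 and BZIP60. A list of 49 genes of this response was written after the values of these factors were seen. Only 4 of the 49 were measured, and their values are given without a test of the list. S1P is among the 4 as a protease that acts on BZIP17, not as a target. The disulfide isomerase-like PDIL5-1 stood at 8.32 in wild type on ABA and 7.55 without it. The difference was 0.77 ± 0.33 (limma, adjusted p = 0.404, or an adjusted p = 0.0299 with the block). With ABA the block fit called 6.1% of all probe sets higher, and it called no other gene of this list. The derlin gene DER1 differed by 0.44 ± 0.24 and the site-1 protease gene S1P, whose product cleaves BZIP17, by 0.31 ± 0.21, each positive within both replicate numbers. The calreticulin gene CRT1b differed by -0.24 ± 0.42 and was negative within both. In the mutants none of the 4 was called by either fit.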
